A study of Mus musculus with 16 samples.

Results

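Gene expression in the livers of ethanol-fed mice that also received an allyl sulfide preparation was compared with that in ethanol-fed mice that received the vehicle alone. The comparison took 12 of the 16 arrays of the series: 4 arrays of mice given diallyl disulfide (DADS), 4 arrays of mice given garlic oil, and 4 arrays of mice on the alcohol diet without either. Each treatment had equal weight, so the pooled change was the mean of the DADS and garlic oil groups minus the alcohol group. The arrays were picked by their labels and not by any measured value.

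All mice were male C57BL/6. DADS mice received the Lieber-DeCarli ethanol liquid diet and 15 mg/kg of DADS in 0.1 ml of olive oil by gavage each day for 4 weeks. Garlic oil mice received the same diet and 50 mg/kg of garlic oil in the same volume of olive oil. Alcohol mice received the ethanol diet and olive oil alone. A control group of 4 mice was pair-fed the liquid diet without ethanol and was gavaged with olive oil, and its values are given here only as a description. All 3 ethanol-fed groups therefore shared the ethanol diet and the olive oil, and the doses of the 2 preparations differed, so the pooled change is that of these preparations at these doses.

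Diallyl disulfide is an organosulfur compound that forms when garlic is crushed, and garlic oil is a mixture that contains several allyl sulfides. The liver takes up such compounds and conjugates them with glutathione, and they are known to inhibit CYP2E1, the cytochrome P450 that oxidises ethanol. Chronic ethanol feeding leads to fat storage in hepatocytes, and it alters lipid, bile acid and steroid metabolism. Many genes of mouse liver also differ between the sexes, because hepatocytes read the pulsatile or continuous pattern of growth hormone in the blood.

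RNA from frozen liver was hybridised to 1-colour Illumina bead arrays, with 25697 probes on each array. The groups lay on 2 chips of 8 arrays. The DADS arrays held positions 1 to 4 and the garlic oil arrays positions 5 to 8 of the first chip. The control arrays held positions 1 to 4 and the alcohol arrays positions 5 to 8 of the second. Treatment and chip therefore cannot be told apart in any comparison with alcohol, nor can treatment and position on the chip between DADS and garlic oil. The labels call the arrays biological replicates. On each of the 12 arrays between 10742 and 11526 probes were detected, and no difference in this number was shown between the 8 treated and the 4 alcohol arrays (difference in means 171, exact permutation test, two-sided, p = 0.285). Levels are log2 values of the normalised signal, and a change is a difference between such values. The median SD between replicates was 0.220 with DADS, 0.231 with garlic oil and 0.222 with alcohol.

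1 array stood apart. The summed level of 23 genes of pancreatic acinar cells, which secrete digestive enzymes, was 10.36 to 10.97 on the treated arrays, against 19.61 on alcohol replicate 1 and 10.40 to 11.03 on the other 3 alcohol arrays. The 6 acinar genes that passed the filter had a median pooled change of -2.13, and of -0.10 without that array. The summed level of 13 defining hepatocyte genes, among them albumin and transthyretin, was 18.45 to 18.57 on the treated arrays and 18.39 to 18.52 on the alcohol arrays. Changes past the test are therefore also given without alcohol replicate 1.

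Of 8243 genes tested, 68 (0.825%) changed with the pooled treatments at an adjusted p under 0.05 (limma, Benjamini-Hochberg over all genes tested). 24 rose (0.291%), 6 of them at least 2-fold, and 44 fell (0.534%), 12 of them at least 2-fold. At an unadjusted p under 0.05 there were 1372 genes. The median pooled change of all genes was -0.00053. With each array scaled to its median in place of quantile normalisation, the median of all genes lay at 0.13, and the split was 116 rises and 24 falls among 140 genes. All 68 genes kept their sign in that setting, and 45 of them passed the test. The 8 treated arrays all lay above the 4 alcohol arrays for 64 genes (0.776%) and all below them for 126 genes (1.53%). In all, 190 genes (2.3%) did not overlap between the groups. Among the 68 genes this held for 16 rises and 34 falls.

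The count of 68 depended on which alcohol arrays were in the fit. No gene passed the test without alcohol replicate 2 (lowest adjusted p 0.0684, 1072 genes at an unadjusted p under 0.05) or without alcohol replicate 3 (lowest adjusted p 0.0905, 1138 genes). This holds for every gene described below as having risen or fallen. Without alcohol replicate 1 there were 24 genes, 21 of them among the 68, and without alcohol replicate 4 there were 72, of which 38 were. Leaving out a DADS array gave 26 to 76 genes, and leaving out a garlic oil array gave 34 to 63. All 68 genes kept their direction in each of these 12 fits. 13 genes passed in at least 10 of the 12 fits, 10 genes in 8 or 9, and 28 genes in 3 or fewer. In whole liver RNA, fewer cells of a type and less RNA per cell cannot be told apart.

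**Figure D1:**
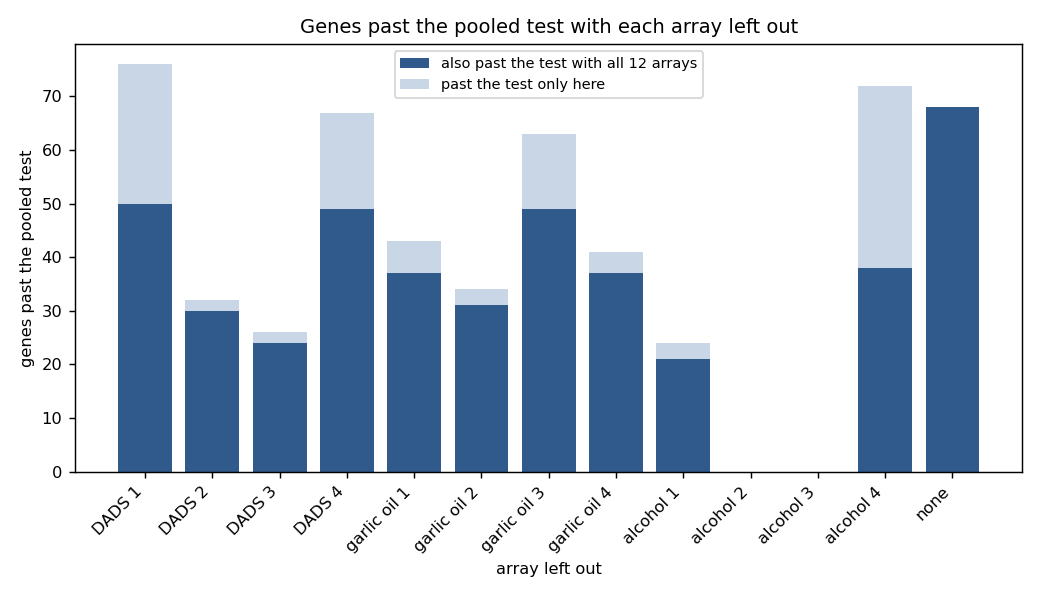
Number of genes past the pooled test (vertical axis) with each of the 12 arrays left out in turn (horizontal axis); dark bars are genes that also passed with all 12 arrays and pale bars are genes that passed only in that fit. The count is 0 without alcohol replicate 2 or alcohol replicate 3, 24 without alcohol replicate 1 and 68 with no array left out.

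The largest shared rise was in a steroid-synthesis enzyme, and genes with a known sex bias in mouse liver made up several of the largest changes. Cyp17a1, the 17-alpha-hydroxylase of steroid synthesis, rose 6.17-fold and Cyp2b9, a cytochrome P450 of female mouse liver, rose 3.17-fold. Elovl3, an elongase of very long-chain fatty acids, Mup21, a major urinary protein, and C6, a component of the complement membrane attack complex, are genes of male liver, and all 3 fell.

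Cyp17a1 read 10.54, 12.34, 11.68 and 10.45 with DADS and 11.12, 11.79, 12.04 and 10.997 with garlic oil, against 8.83, 8.69, 7.61 and 9.84 with alcohol. Every treated array lay above every alcohol array, and the control arrays, at 9.21 ± 0.48 (SD, n = 4), lay near the alcohol arrays. The pooled change was 2.63 ± 0.40 (SE, limma adjusted p = 0.0209), with 2.51 for DADS and 2.74 for garlic oil. Cyp2b9 read 13.38, 13.28, 13.14 and 11.91 with DADS and 12.44, 12.18, 12.09 and 13.04 with garlic oil, against 10.81, 10.71, 10.89 and 11.66 with alcohol. The groups again did not overlap, and the control arrays were far lower, at 6.09 ± 0.59 (SD, n = 4), with the probe detected on 2 of those 4. The pooled change was 1.66 ± 0.27 (SE, limma adjusted p = 0.0209). The genes of the Cyp2b family are near-identical in sequence, so a probe may read more than 1 of them.

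Elovl3 read 5.05, 4.98, 5.68 and 6.43 with DADS and 6.29, 7.84, 7.87 and 7.21 with garlic oil, against 9.47, 9.80, 8.71 and 6.93 with alcohol. Alcohol replicate 4 lay within the garlic oil values, so the groups overlapped. The Elovl3 probe was detected on 2 of the 4 DADS arrays, so the fitted change uses signals below detection. The pooled change was -2.31 ± 0.47 (SE, limma adjusted p = 0.0381), with -3.19 for DADS and -1.42 for garlic oil. Mup21 read 9.14, 9.71, 9.53 and 10.78 with DADS and 11.33, 11.52, 11.64 and 11.89 with garlic oil, against 12.30, 12.84, 12.62 and 11.48 with alcohol. It was lower with DADS than with garlic oil, and all of these values lay below the control arrays at 14.03 ± 0.26 (SD, n = 4). Its pooled change was -1.62 ± 0.28 (SE, limma adjusted p = 0.0226), and close relatives of the urinary protein family may share its probe. C6 read 8.72, 8.99, 8.996 and 9.47 with DADS and 9.07, 9.43, 10.29 and 9.77 with garlic oil, against 10.99, 11.47, 11.02 and 9.85 with alcohol. The pooled change was -1.49 ± 0.27 (SE, limma adjusted p = 0.027), and the control arrays were higher still, at 12.15 ± 0.17 (SD, n = 4).

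Of 20 listed genes of male liver that depend on pulsatile growth hormone, 17 were measured. 3 fell and none rose, and all 17 had a pooled change below 0, with a median of -0.88, -1.45 for DADS and -0.72 for garlic oil. 2 of the 17 differed between DADS and garlic oil, where 0.655% of all genes did. Across all genes 0.534% fell, and the median was -0.00053. Hsd3b5, a steroid dehydrogenase, was at -3.41 (limma adjusted p = 0.168) and Cyp4a12a, a fatty acid hydroxylase, was at -2.14 (adjusted p = 0.0685), and neither passed the test. Of 20 listed genes of female liver 17 were on the array and 7 were measured. 8 were detected on none of the 12 arrays. Cyp17a1 and Cyp2b9 rose, where 0.291% of all genes did. All 7 had a pooled change above 0, with a median of 1.66, 1.91 for DADS and 0.63 for garlic oil. Among those that did not pass, Cux2, a transcription factor of female liver, was at 1.86 (adjusted p = 0.0693). Cux2 and Abcd2 were detected on 6 of the 12 arrays and Cyp2c39 on 7. A gene near background can pass the filter through the group where it is higher. The shared direction of the measured female genes is therefore not independent of the filter. These lists were drawn up with earlier results of these arrays known. Without alcohol replicate 1, Cyp17a1 stayed past the test (2.66, adjusted p = 0.0388), while Cyp2b9 (1.60, adjusted p = 0.0511), Mup21 (-1.62, adjusted p = 0.0536), C6 (-1.44, adjusted p = 0.065) and Elovl3 (-2.06, adjusted p = 0.112) did not.

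The growth hormone pathway itself gave no gene past the test among 13 measured. Ghr, the growth hormone receptor, was at -0.37 (95% interval -0.79 to 0.05, limma adjusted p = 0.361), and Igf1, its main secreted target, was at 0.18 (-0.18 to 0.55, adjusted p = 0.637). Socs2, an inhibitor of the receptor that growth hormone induces, was at 1.33 (0.30 to 2.36, adjusted p = 0.186). Its values were 11.11, 10.56, 9.46 and 9.80 with DADS and 10.26, 7.16, 7.81 and 8.58 with garlic oil, against 6.95, 8.37, 8.39 and 8.34 with alcohol. The 4 DADS arrays lay above the alcohol arrays, and the garlic oil arrays overlapped them.

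**Figure D2:**
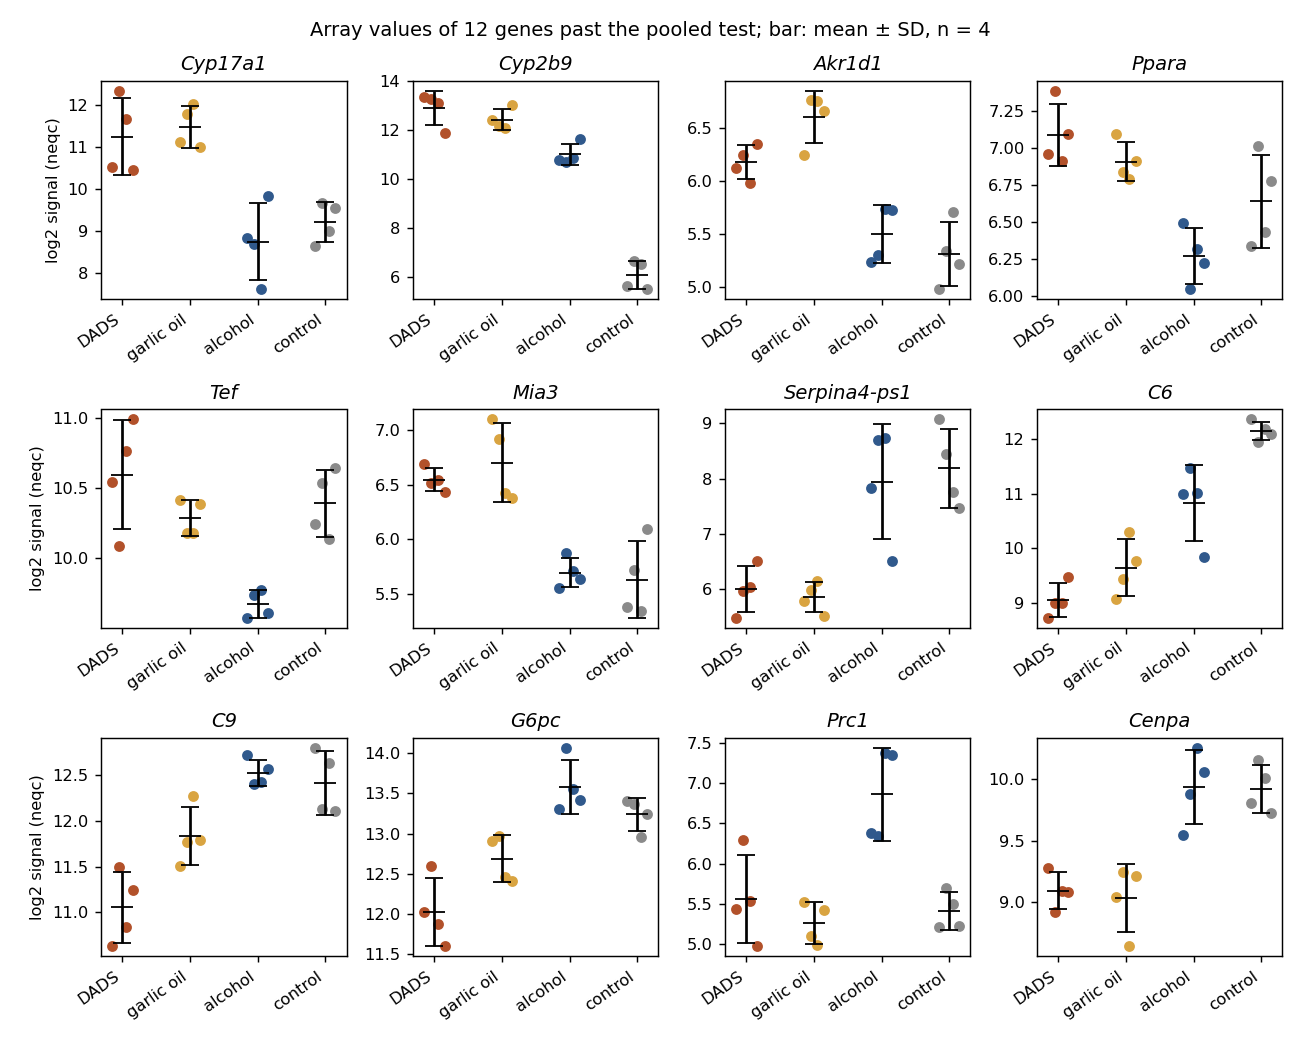
Log2 normalised signal (vertical axes) of 12 genes past the pooled test on each array of the DADS, garlic oil, alcohol and control groups (horizontal axes); points are arrays and bars are the mean ± SD of 4 arrays. In 11 of the 12 genes the DADS and garlic oil points do not overlap the alcohol points, and in C6 alcohol replicate 4, at 9.85, lies within the garlic oil values.

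Several genes for the handling of bile acids and foreign compounds rose. Akr1d1, the 5-beta-reductase of bile acid synthesis, Slc51b, a subunit of the transporter that exports bile acids into the blood, Gstt2, a theta-class glutathione transferase, and Sult1a1, a phenol sulfotransferase, were among them. Slco1a4, an uptake transporter of bile acids and organic anions, rose in the pooled test but differed between the treatments, as described further on.

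Akr1d1 read 6.12, 6.25, 5.99 and 6.36 with DADS and 6.25, 6.76, 6.76 and 6.66 with garlic oil, against 5.24, 5.30, 5.74 and 5.73 with alcohol. The groups did not overlap, and the probe was detected on all 8 treated arrays and on 2 of the 4 alcohol arrays. Pooled over both treatments, the change was 0.89 ± 0.14 (SE, limma adjusted p = 0.0209), and without alcohol replicate 1 it was 0.80 (adjusted p = 0.0447). Slc51b read 6.96, 6.58, 6.92 and 6.23 with DADS and 5.60, 6.47, 5.74 and 6.28 with garlic oil, against 5.89, 5.30, 5.24 and 5.33 with alcohol. The DADS arrays lay above all alcohol arrays, and 2 garlic oil arrays lay below alcohol replicate 1. Its change in the pooled test was 0.91 ± 0.19 (SE, limma adjusted p = 0.0436), and 1.06 without alcohol replicate 1 (adjusted p = 0.0438). The probe was detected on 1 of the 4 alcohol arrays.

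Of 18 measured bile acid genes, Akr1d1 and Slc51b rose, where 0.291% of all genes did, and none fell. Both passed the filter only through their treated arrays, so this count is not independent of the filter. 14 lay above 0 with a median of 0.24, and of 0.46 with arrays scaled to their median. Cyp7a1, the rate-limiting enzyme of bile acid synthesis, was at 1.16 (95% interval -0.17 to 2.50, limma adjusted p = 0.367). It read 8.62, 6.61, 10.37 and 9.77 with DADS and 7.91, 6.95, 6.34 and 7.27 with garlic oil, against 6.44, 6.69, 8.61 and 5.53 with alcohol. The spread within the DADS and alcohol groups was wide, and the groups overlapped. The control arrays had a mean of 10.78 ± 0.65 (SD, n = 4).

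Gstt2 read 10.59, 11.16, 11.55 and 11.22 with DADS and 10.65, 11.09, 10.54 and 11.14 with garlic oil, against 10.13, 9.72, 10.38 and 10.22 with alcohol. The groups did not overlap, and the pooled change was 0.88 ± 0.18 (SE, limma adjusted p = 0.0436). Without alcohol replicate 1 it was 0.88 (adjusted p = 0.0952). Of 26 measured targets of NRF2 and glutathione enzymes it was the only gene to pass the test. The median of the list was 0.07, and -0.03 without alcohol replicate 2. Nqo1, a quinone reductase and classical NRF2 target, was at 0.69 (95% interval 0.10 to 1.28, adjusted p = 0.229), and Gclc, the catalytic subunit for glutathione synthesis, was at -0.19 (-0.73 to 0.36, adjusted p = 0.764). Mafk, a small MAF protein that pairs with NRF2, rose by 0.83 ± 0.16 (SE, adjusted p = 0.0349), with 0.66 for DADS and 0.99 for garlic oil, and was at 0.76 without alcohol replicate 1 (adjusted p = 0.0947). It was detected on 7 of the 8 treated arrays and 1 of the 4 alcohol arrays. Mafk, like every gene named outside the lists and the rule of selection, was chosen after its values were seen.

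Sult1a1 rose by 0.59 ± 0.13 (SE, limma adjusted p = 0.0436), and its 8 treated arrays, between 13.78 and 14.24, all lay above the 4 alcohol arrays, between 13.11 and 13.69. Papss1, which makes the sulfate donor that sulfotransferases use, fell by 0.68 (SE 0.13, adjusted p = 0.0349). Its treated arrays lay between 6.91 and 7.65 and its alcohol arrays between 7.81 and 8.12. Neither gene passed without alcohol replicate 1, with adjusted p of 0.13 and 0.0772.

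Of 18 measured genes of the xenobiotic receptors CAR and PXR and their targets, Slco1a4 rose, where 0.291% of all genes did. 17 of the 18 lay above 0, and the median was 0.40. Without alcohol replicate 1, 14 lay above 0 with a median of 0.39, and without alcohol replicate 4, 15 did with a median of 0.46. Nr1i3, the gene of CAR, was at 0.77 (limma adjusted p = 0.0541), Cyp2c38 at 1.04 (adjusted p = 0.0728) and Cyp2a5 at 0.70 (adjusted p = 0.0693). Cyp2b10, the best known target of CAR in mouse liver, was at 0.11 (95% interval -0.82 to 1.04, adjusted p = 0.932), with -0.47 for DADS and 0.69 for garlic oil. The probe was detected on all 8 treated and all 4 alcohol arrays and on no control array. For 4 of the 18 genes, Nr1i3, Abcc3, Cyp2c37 and Cyp2c50, all treated arrays lay above all alcohol arrays, as they did for 0.776% of all genes, and none of these 4 passed the test.

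Genes that metabolise ethanol gave no gene past the test among 10 measured. Cyp2e1 read 15.69, 15.57, 15.60 and 15.69 with DADS and 15.69, 15.64, 15.50 and 15.66 with garlic oil, against 15.69, 15.72, 15.56 and 15.64 with alcohol. The values overlapped fully, and the pooled change of -0.02 had a 95% interval of -0.23 to 0.18. This signal was close to the brightest measured for any gene, a range in which bead signals can saturate. Adh1, alcohol dehydrogenase, was at 0.16 (-0.16 to 0.48) and Aldh2, the mitochondrial acetaldehyde dehydrogenase, was at -0.05 (-0.25 to 0.15). Of 15 measured enzymes of methionine and sulfur metabolism none passed, with a median of 0.01. Among them Cth, which releases cysteine from cystathionine, was at 0.44 (-0.04 to 0.92) and Cbs, which makes cystathionine, was at -0.06 (-0.38 to 0.26).

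Among genes of lipid and glucose metabolism, Ppara, Apoa4 and Abhd2 rose, and Elovl3, G6pc, Acot11 and Sort1 fell. Ppara encodes the nuclear receptor that turns on fatty acid oxidation in fasting, and G6pc encodes glucose-6-phosphatase, the last step of glucose release by the liver.

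Ppara read 6.96, 7.39, 6.92 and 7.10 with DADS and 7.09, 6.84, 6.79 and 6.91 with garlic oil, against 6.50, 6.04, 6.32 and 6.22 with alcohol. The groups did not overlap, and the control mean was 6.64 ± 0.31 (SD, n = 4). Across both treatments the change was 0.73 ± 0.12 (SE, limma adjusted p = 0.0226), with 0.82 for DADS and 0.64 for garlic oil, and 0.81 without alcohol replicate 1 (adjusted p = 0.0388). Of 29 measured genes of PPARA and fatty acid oxidation it was the only member to pass, and 26 lay above 0 with a median of 0.23, and of 0.43 with arrays scaled to their median. Cpt1a, which carries fatty acids into mitochondria, was at -0.14 (95% interval -0.47 to 0.18). Fgf21, a hormone gene that PPARA induces in the fasted liver, was at 1.04 (0.12 to 1.96, adjusted p = 0.246), with 1.89 for DADS and 0.19 for garlic oil. Cyp4a14, a strongly responsive PPARA target, was at 0.82 (adjusted p = 0.0693).

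G6pc read 12.03, 12.60, 11.88 and 11.60 with DADS and 12.91, 12.97, 12.46 and 12.41 with garlic oil, against 13.30, 14.07, 13.55 and 13.42 with alcohol. Every treated array lay below every alcohol array, and the control mean was 13.24 ± 0.20 (SD, n = 4). Pooled over both treatments, the change was -1.23 ± 0.19 (SE, limma adjusted p = 0.0209), and -1.32 without alcohol replicate 1 (adjusted p = 0.0388). Of 18 measured genes of insulin action and glucose metabolism no other passed. Pck1, the first committed enzyme of gluconeogenesis, was at 0.12 (adjusted p = 0.76) and Slc37a4, the transporter that feeds glucose-6-phosphatase, at 0.17 (adjusted p = 0.574). Irs2, an insulin receptor substrate, was at 0.79 (95% interval -0.11 to 1.68, adjusted p = 0.366).

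Sort1, a sorting receptor that affects lipoprotein secretion by hepatocytes, read 9.76, 9.51, 9.83 and 10.08 with DADS and 10.09, 10.02, 9.84 and 9.97 with garlic oil, against 10.79, 10.87, 10.90 and 10.35 with alcohol. The groups did not overlap, and the control mean was 10.70 ± 0.13 (SD, n = 4). Its change in the pooled test was -0.84 ± 0.13 (SE, limma adjusted p = 0.0209), and -0.82 without alcohol replicate 1 (adjusted p = 0.0438). Acot11, an acyl-CoA thioesterase, read between 5.44 and 6.43 on the treated arrays and between 6.57 and 7.28 on the alcohol arrays. Its pooled change was -0.98 ± 0.21 (SE, adjusted p = 0.0443), and -1.11 without alcohol replicate 1 (adjusted p = 0.0588).

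Among 15 measured genes of fatty acid synthesis none passed the test, and 11 lay below 0 with a median of -0.14. Scaling each array to its median moved that median to 0.04, and leaving out alcohol replicate 3 moved it to -0.02. Scd1, the stearoyl-CoA desaturase, read 14.38, 14.77, 13.71 and 13.72 with DADS and 14.04, 14.22, 13.83 and 14.50 with garlic oil, against 14.09, 15.37, 15.43 and 15.40 with alcohol. All 8 treated arrays lay below 3 of the 4 alcohol arrays, and alcohol replicate 1 lay among the treated values. Across both treatments the change was -0.93 (95% interval -1.49 to -0.36, limma adjusted p = 0.101), and -1.25 without alcohol replicate 1, where it passed the test (adjusted p = 0.0388). Srebf1, the regulator of fatty acid synthesis, was at -0.28 (-0.83 to 0.27), Fasn, fatty acid synthase, at -0.11 (-0.47 to 0.25) and Plin2, which coats lipid droplets, at -0.21 (-0.86 to 0.44). Of 17 measured genes of cholesterol synthesis none passed, and 15 lay above 0 with a median of 0.30. Without alcohol replicate 2 the median was 0.13, with 11 above 0, and with arrays scaled to their median it was 0.49.

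Clock output and stress-hormone genes gave a rise each. Tef, a transcription factor driven by the circadian clock, read 10.54, 10.08, 10.77 and 10.99 with DADS and 10.41, 10.18, 10.18 and 10.38 with garlic oil, against 9.57, 9.73, 9.77 and 9.60 with alcohol. No treated array overlapped an alcohol array, and the control arrays, at 10.39 ± 0.24 (SD, n = 4), lay among the treated values. Pooled over both treatments, the change was 0.77 ± 0.15 (SE, limma adjusted p = 0.0315), and 0.74 without alcohol replicate 1 (adjusted p = 0.077). Of 14 measured clock genes no other passed, and the median was 0.48. Dbp, a close relative of Tef, was at 1.08 (adjusted p = 0.16), Nr1d1 at 0.66 (adjusted p = 0.208), and Arntl, which drives the positive arm of the clock, at -0.92 (adjusted p = 0.134). The times at which the mice were killed are not given in the labels used here.

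Fkbp5, a co-chaperone of steroid receptors that glucocorticoids induce, read 9.54, 9.52, 9.14 and 9.24 with DADS and 10.06, 10.18, 10.19 and 10.05 with garlic oil, against 8.14, 9.21, 9.22 and 8.39 with alcohol. The garlic oil arrays lay above all alcohol arrays, and the DADS arrays overlapped 2 of them. Its change in the pooled test was 1.00 ± 0.19 (SE, limma adjusted p = 0.0315), and 0.80 without alcohol replicate 1 (adjusted p = 0.065). The other 12 measured genes of the glucocorticoid list did not pass, and the median of the list was -0.14, with -0.06 without alcohol replicate 3. Tsc22d3, a gene that glucocorticoids also induce, was at -0.72 (adjusted p = 0.113). Tsc22d1, of the same family of transcriptional regulators, read 6.00, 5.41, 5.27 and 6.55 with DADS and 6.42, 7.33, 7.18 and 6.05 with garlic oil, against 8.26, 7.84, 7.49 and 7.55 with alcohol. Of 14 measured genes of cell cycle arrest and DNA damage it was the only one to pass, with a pooled change of -1.51 ± 0.27 (SE, adjusted p = 0.0253), and was at -1.35 without alcohol replicate 1 (adjusted p = 0.065). The control arrays were at 10.79 ± 0.61 (SD, n = 4), so the alcohol arrays lay between the control and the treated arrays. The Tsc22d1 probe was detected on 2 of the 4 DADS arrays, so its fitted change uses signals below detection.

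Several genes with roles in mitosis, DNA replication or chromatin were among the falls, most of them picked for the size of the fall or after their values were seen. Prc1, which bundles microtubules in cytokinesis, Cdc20, an activator of the anaphase-promoting complex, Cenpa, the histone H3 variant of centromeres, Mcm5, a subunit of the replicative helicase, and E2f1, a transcription factor of S-phase entry, were lower with both treatments. So were Stmn1, which destabilises microtubules, and 3 genes for histone H2A. The 250 bases before the annotated start of 4 of them, picked by hand after their falls were seen, are shown. The other genes named here also fell and were not searched. The sequences are from RefSeq (GRCm38.p6), on the strand of the gene, and end at the base before the start. They were searched on both strands for CCAAT, the box bound by NF-Y, for the cell cycle element TTTGAA, and for the E2F motif TTTCGCGC, which do not overlap each other in these windows. Matches stand in capitals, with ATTGG where the box lies on the other strand.
Prc1, chr7:80294201-80294450, plus strand: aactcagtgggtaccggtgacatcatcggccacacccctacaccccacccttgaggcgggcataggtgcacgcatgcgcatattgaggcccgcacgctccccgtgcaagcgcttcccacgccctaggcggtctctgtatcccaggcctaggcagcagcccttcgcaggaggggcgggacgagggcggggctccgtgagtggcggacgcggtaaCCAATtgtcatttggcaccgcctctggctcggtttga
Cdc20, chr4:118437344-118437593, minus strand: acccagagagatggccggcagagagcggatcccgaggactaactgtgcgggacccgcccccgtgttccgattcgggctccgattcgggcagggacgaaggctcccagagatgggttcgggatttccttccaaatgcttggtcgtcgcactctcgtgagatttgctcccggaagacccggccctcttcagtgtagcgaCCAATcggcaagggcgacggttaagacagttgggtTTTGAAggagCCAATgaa
Cenpa, chr5:30666636-30666885, plus strand: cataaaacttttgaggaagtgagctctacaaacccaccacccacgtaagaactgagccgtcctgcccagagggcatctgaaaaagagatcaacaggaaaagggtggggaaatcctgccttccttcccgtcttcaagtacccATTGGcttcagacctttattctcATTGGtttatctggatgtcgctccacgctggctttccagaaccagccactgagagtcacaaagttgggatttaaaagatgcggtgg
Mcm5, chr8:75109259-75109508, plus strand: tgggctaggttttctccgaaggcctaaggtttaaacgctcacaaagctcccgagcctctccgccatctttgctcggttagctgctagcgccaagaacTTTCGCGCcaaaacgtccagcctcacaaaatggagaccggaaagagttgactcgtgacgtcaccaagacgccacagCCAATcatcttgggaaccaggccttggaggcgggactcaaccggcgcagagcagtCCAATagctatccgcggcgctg

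The box CCAAT was found in all 4 windows, once in Prc1 and 2 times in each of the others, and 33.8% of all 32851 windows of this length hold it. TTTGAA was found in Cdc20 and is held by 16% of windows. Matches that run past the start were not counted, and the Prc1 window ends in the first letters of this element. TTTCGCGC was found in Mcm5 and is held by 0.256% of windows. A match is a description of the letters and does not show that a factor binds there. Prc1 has 2 windows in the table, and the first was used.

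Prc1 read 5.44, 6.30, 5.53 and 4.98 with DADS and 5.53, 5.10, 4.996 and 5.43 with garlic oil, against 6.38, 6.34, 7.37 and 7.35 with alcohol. There was no overlap between treated and alcohol arrays, although DADS replicate 2 lay just under the 2 lower alcohol arrays. The probe was detected on 1 of 8 treated arrays, against 4 of 4 alcohol arrays and no control array, so the fitted change of -1.45 ± 0.25 (SE, limma adjusted p = 0.0226) depends on signals near background. Cdc20 was likewise detected on 2 of 8 treated arrays, against all alcohol arrays and no control array. It read 5.16, 6.07, 5.19 and 4.89 with DADS and 5.44, 5.15, 4.83 and 5.64 with garlic oil, against 6.04, 5.92, 6.66 and 6.96 with alcohol. DADS replicate 2 overlapped the alcohol arrays, and the pooled change was -1.10 ± 0.24 (SE, adjusted p = 0.0487).

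Cenpa read 9.28, 8.92, 9.10 and 9.09 with DADS and 9.04, 9.24, 8.64 and 9.21 with garlic oil, against 9.55, 9.88, 10.26 and 10.06 with alcohol. All arrays detected it and the groups did not overlap. Across both treatments the change was -0.87 ± 0.15 (SE, limma adjusted p = 0.0226), with -0.84 for DADS and -0.90 for garlic oil. The control arrays, at 9.92 ± 0.19 (SD, n = 4), lay with the alcohol arrays, unlike those of Prc1 and Cdc20, whose control means of 5.41 and 5.15 lay with the treated arrays. E2f1 read 6.23, 6.15, 5.49 and 5.85 with DADS and 6.43, 6.13, 6.08 and 6.49 with garlic oil, against 7.06, 6.87, 7.09 and 6.80 with alcohol. Its pooled change was -0.85 ± 0.15 (SE, adjusted p = 0.0226), with a control mean of 6.31 ± 0.10 (SD, n = 4) among the treated values.

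Mcm5 read 6.21, 5.90, 6.01 and 6.04 with DADS and 6.53, 6.04, 5.89 and 6.31 with garlic oil, against 6.89, 6.62, 7.06 and 6.70 with alcohol, with a pooled change of -0.70 ± 0.13 (SE, limma adjusted p = 0.0346). No treated array overlapped an alcohol array. Stmn1 fell by 0.70 (SE 0.15, adjusted p = 0.0436), and DADS replicate 2, at 6.57, lay above the lowest alcohol array, at 6.50. The list for cell division and DNA replication had 19 genes on the array. Of these, 11 were measured, and 6 were detected on none of the 12 arrays. Cdc20 and Mcm5 fell, where 0.534% of all genes did, but Cdc20 passed the filter only through its alcohol arrays. Of the 11 genes, 8 lay below 0 with a median of -0.32. Without background correction that median was -0.15. Prc1 and Cenpa were named for the size of their fall, and E2f1 and Stmn1 were chosen after their values were seen. Without alcohol replicate 1, Prc1 (-1.61, adjusted p = 0.0388) and Cenpa (-0.999, adjusted p = 0.0388) stayed past the test. E2f1 (-0.81, adjusted p = 0.0588), Cdc20 (-1.22, adjusted p = 0.065), Mcm5 (-0.68, adjusted p = 0.0781) and Stmn1 (-0.71, adjusted p = 0.102) did not.

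H2ac15 read 7.45, 7.24, 7.39 and 7.45 with DADS and 7.29, 7.09, 6.90 and 7.08 with garlic oil, against 7.63, 8.01, 8.18 and 8.15 with alcohol. There was no overlap between treated and alcohol arrays, and the pooled change was -0.75 ± 0.12 (SE, limma adjusted p = 0.0209). H2ac24 changed by -0.76 (adjusted p = 0.0349) and H2ac7 by -1.07 (adjusted p = 0.0371), and their treated arrays also lay below all alcohol arrays. All 3 stayed past the test without alcohol replicate 1, with changes of -0.87, -0.85 and -1.26. Of 35 measured histone genes, a set chosen after their values were seen, these 3 fell, where 0.534% of all genes did, and none rose. 30 of the 35 lay below 0 with a median of -0.27. 6 of the 35 had all treated arrays below all alcohol arrays, where 1.53% of all genes did. With arrays scaled to their median, 26 of the 35 were below 0, with a median of -0.13. The H2A genes are near-identical in sequence, so their probes may read each other's RNA and are not independent. Replication-dependent histone RNA normally has no poly(A) tail, and the labels used here do not say how the cDNA was primed.

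**Figure D3:**
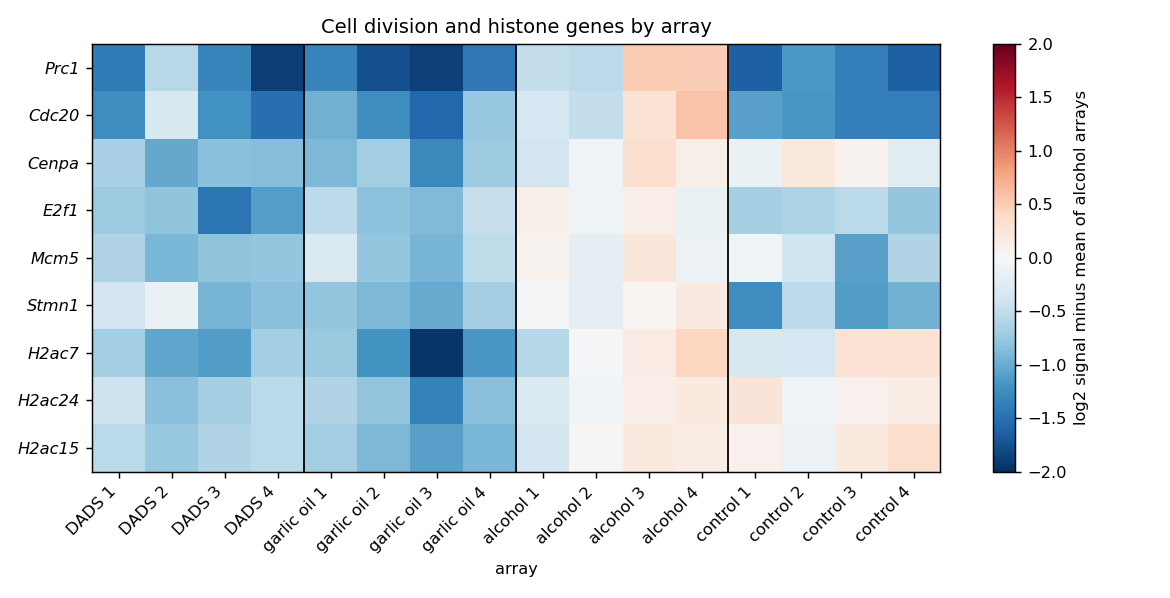
Log2 signal minus the mean of the 4 alcohol arrays (colour scale) for 6 cell division genes and 3 histone genes (rows) on each array (columns; DADS, garlic oil, alcohol and control from left to right). All 9 genes are below 0 in all 8 treated columns; the control columns are below 0 for Prc1, Cdc20, E2f1, Mcm5 and Stmn1 and close to 0 for Cenpa and H2ac24.

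C9, which forms the pore of the membrane attack complex, fell along with C6. Gbp2b, an interferon-inducible GTPase, and Bst2, an interferon-inducible protein that tethers budding viruses, fell as well.

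C9 read 10.63, 11.498, 10.83 and 11.25 with DADS and 11.51, 11.77, 12.27 and 11.79 with garlic oil, against 12.72, 12.40, 12.43 and 12.56 with alcohol. No treated array overlapped an alcohol array, and the control mean was 12.42 ± 0.35 (SD, n = 4). Pooled over both treatments, the change was -1.09 ± 0.17 (SE, limma adjusted p = 0.0209), and -1.02 without alcohol replicate 1 (adjusted p = 0.0438). Of 28 measured genes of secreted complement and coagulation, C6 and C9 fell, where 0.534% of all genes did, and none rose. C8a and C8b, whose products join the same complex, were at -0.73 (adjusted p = 0.0866) and -0.58 (adjusted p = 0.082), while Hc, the gene of complement C5, was at -0.26 (adjusted p = 0.3). The median of the list was -0.09, and 0.11 with arrays scaled to their median, so the list as a whole had no settled direction.

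Gbp2b read 7.66, 6.55, 6.26 and 6.36 with DADS and 7.05, 7.17, 6.22 and 7.88 with garlic oil, against 8.25, 8.19, 8.07 and 8.38 with alcohol. There was no overlap between treated and alcohol arrays, and the pooled change was -1.33 ± 0.28 (SE, limma adjusted p = 0.0436). Bst2 read 10.82, 10.24, 9.92 and 10.34 with DADS and 10.62, 10.42, 10.07 and 10.72 with garlic oil, against 11.02, 11.24, 11.51 and 11.02 with alcohol. Its pooled change was -0.80 ± 0.17 (SE, adjusted p = 0.0436), and again no arrays overlapped. Without alcohol replicate 1 neither passed, with adjusted p of 0.105 for Gbp2b and 0.071 for Bst2. Of 28 measured genes of the interferon list, which lacked Gbp2b, only Bst2 passed, and 26 lay below 0 with a median of -0.23. With arrays scaled to their median, 8 lay above 0 and the median was -0.11.

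None of the 19 measured Kupffer cell and macrophage markers passed the test, and 17 lay below 0 with a median of -0.42. That median was -0.71 for DADS and -0.04 for garlic oil. The summed level of these markers was 13.85 to 14.68 on the treated arrays and 14.35 to 14.59 on the alcohol arrays, and 1 of the 20 on the array was detected on none of the 12. Of 8 measured genes of MHC class II and B cells none passed, and 7 lay below 0 with a median of -0.91. The lowest p values were those of H2-DMa, at -0.80 (limma adjusted p = 0.0541), and H2-Ab1, at -1.12 (adjusted p = 0.0578), both of which serve the presentation of peptides to helper T cells. Their summed level was 10.87 to 12.68 on the treated arrays and 12.31 to 12.96 on the alcohol arrays, and 3 of 12 were detected on none. T and NK cell markers gave 3 measured genes, all below 0 with a median of -0.58, and of -0.22 without alcohol replicate 1. Their part in the falls of interferon-inducible genes was not tested.

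Hamp2, a close copy of the hepcidin gene Hamp, which limits iron release into the blood, read 13.85, 13.71, 13.73 and 13.29 with DADS and 14.01, 13.84, 13.69 and 14.38 with garlic oil, against 12.21, 11.70, 12.63 and 13.64 with alcohol. Alcohol replicate 4 lay within the treated values and the other 3 lay below them. Its change in the pooled test was 1.27 ± 0.27 (SE, limma adjusted p = 0.0436), and 1.16 without alcohol replicate 1 (adjusted p = 0.127). Hamp itself was at 0.40 (adjusted p = 0.444), and the probes of the 2 genes may read each other. Among 17 measured genes of iron and heme turnover no other passed. Id1, a target of the BMP signal that also drives hepcidin, was at 0.89 (adjusted p = 0.082), and Tfrc, the transferrin receptor, was at 0.95 (adjusted p = 0.096).

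The remaining named genes with large shared changes were of varied function. Serpina4-ps1, annotated as a pseudogene of the serpin family, read 5.47, 5.96, 6.04 and 6.51 with DADS and 5.78, 5.98, 6.14 and 5.49 with garlic oil, against 7.84, 8.70, 8.73 and 6.51 with alcohol. Across both treatments the change was -2.02 ± 0.34 (SE, limma adjusted p = 0.0219), with a control mean of 8.19 ± 0.72 (SD, n = 4), and -2.06 without alcohol replicate 1 (adjusted p = 0.0438). DADS replicate 4 lay just under alcohol replicate 4. Mia3, which loads large cargo such as procollagen at the exit sites of the endoplasmic reticulum, read 6.69, 6.51, 6.54 and 6.43 with DADS and 7.09, 6.91, 6.42 and 6.38 with garlic oil, against 5.56, 5.88, 5.71 and 5.64 with alcohol. The groups were well apart, and the pooled change was 0.93 ± 0.14 (SE, adjusted p = 0.0209), and 0.88 without alcohol replicate 1 (adjusted p = 0.0438).

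Jmjd1c, of a family of histone demethylases, read 6.11, 5.83, 6.20 and 6.43 with DADS and 6.31, 5.97, 6.12 and 6.27 with garlic oil, against 5.15, 5.05, 5.22 and 5.78 with alcohol, where 1 of the 4 arrays detected it. Its pooled change was 0.86 ± 0.15 (SE, limma adjusted p = 0.0228), with 0.85 for DADS and 0.87 for garlic oil, and it was at 0.81 without alcohol replicate 1 (adjusted p = 0.0642). Oser1, a gene that responds to oxidative stress, read 9.91, 9.32, 9.54 and 9.54 with DADS and 9.83, 9.39, 9.50 and 9.52 with garlic oil, against 8.34, 9.13, 8.91 and 9.01 with alcohol. Its groups did not overlap, but the change of 0.72 ± 0.16 (SE, adjusted p = 0.0468) passed in none of the 12 fits with an array left out. Fbxo32, a ubiquitin ligase subunit known from muscle atrophy, was detected on 7 of 8 treated arrays and on no alcohol array, and was at least 1.47-fold higher in the treated arrays (adjusted p = 0.0291). Prpf39, a splicing factor, was at least 1.25-fold higher (adjusted p = 0.036), with 6 of 8 treated arrays and no alcohol array above background. Plekhh2 and Ap1m2, an adaptor subunit of vesicle sorting, were detected on no treated array and on all 4 alcohol arrays, and were at least 1.31-fold and at least 1.15-fold lower in the treated arrays (adjusted p of 0.0315 and 0.0436). None of these 4 genes passed without alcohol replicate 1. Such a bound sets the bright mean against the lowest detected signal of the dim arrays. The adjusted p values beside the bounds are those of the fitted changes, which use signals below detection, and do not test the bounds. All 4 genes passed the filter only through the group where they were higher.

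Both treatments were set beside each other for the 68 genes. The comparisons of DADS with alcohol and of garlic oil with alcohol share the 4 alcohol arrays, so their values are given side by side and no likeness between them is drawn. DADS against alcohol gave 90 genes past the test (1.09%) and garlic oil against alcohol gave 46 (0.558%). The difference between DADS and garlic oil, which uses no alcohol array and lies within 1 chip, gave 54 genes (0.655%) and 1194 at an unadjusted p under 0.05. 5 of the 68 were among the 54, and 22 of the 68 (32.4%) had an unadjusted p under 0.05 for that difference, against 14.5% of all genes.

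**Figure D4:**
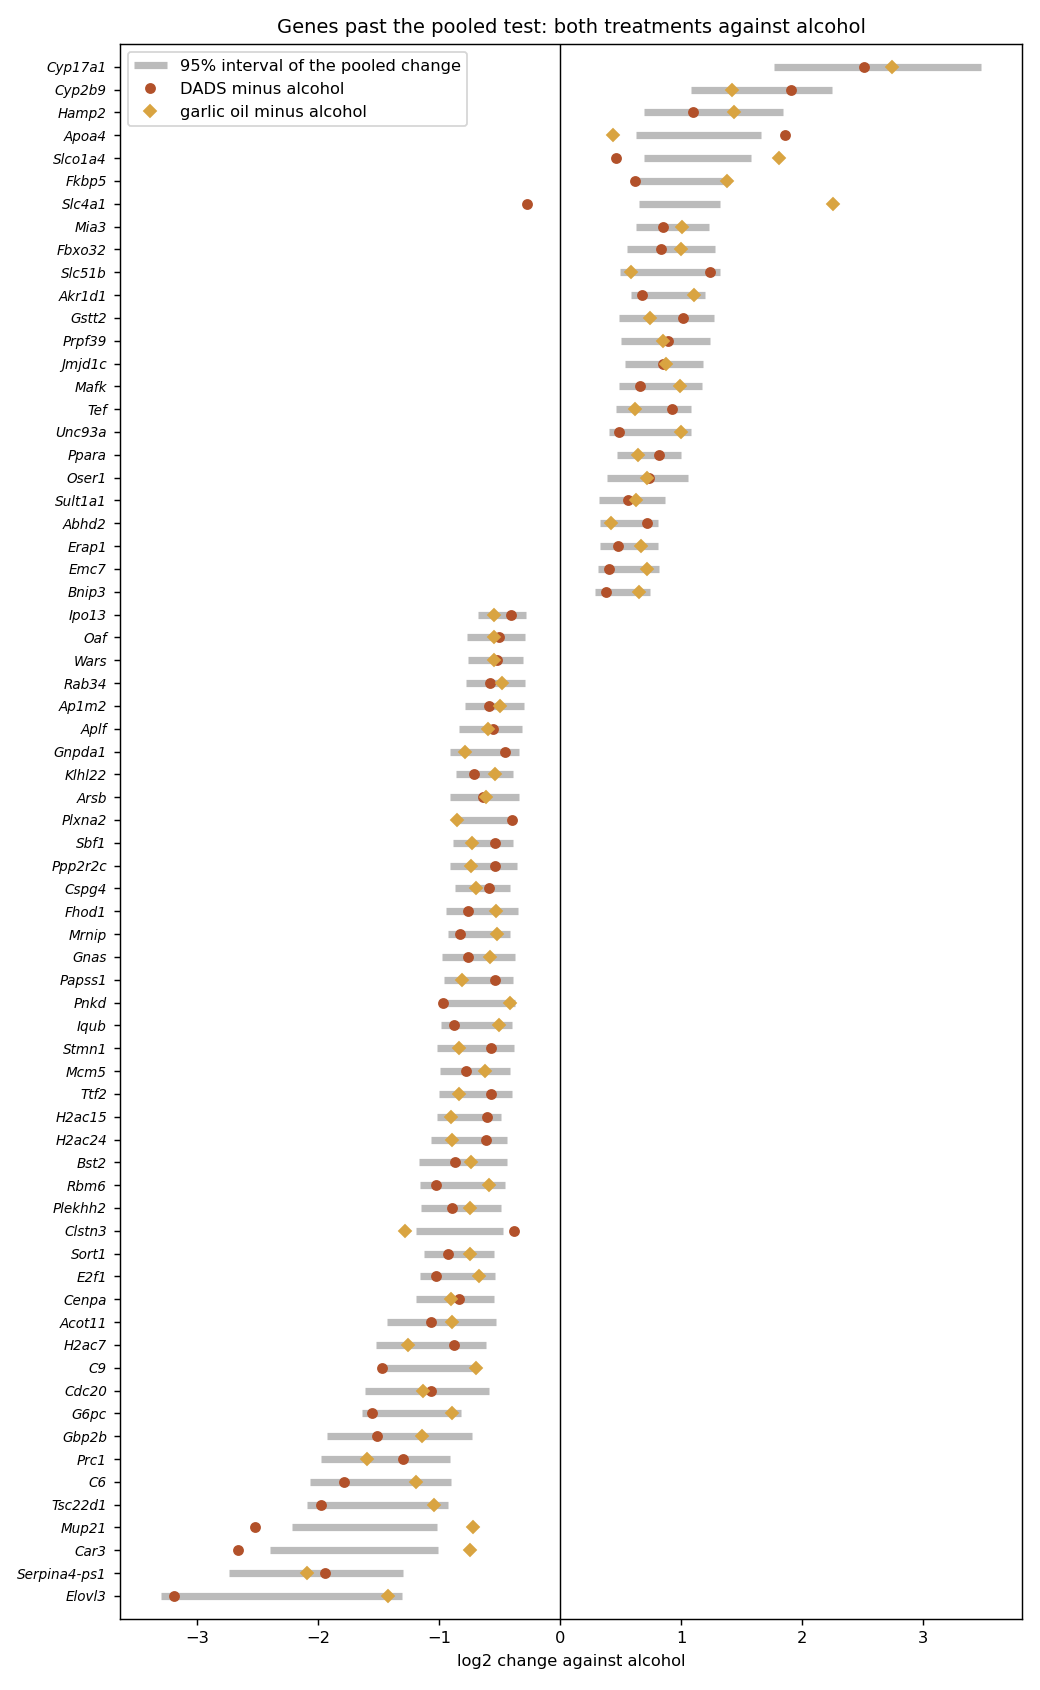
Log2 change against alcohol (horizontal axis) of the 68 genes past the pooled test (rows, ordered by pooled change); grey bars are the 95% interval of the pooled change, circles are DADS minus alcohol and diamonds are garlic oil minus alcohol. Both marks lie on the same side of 0 for 67 genes, and Slc4a1 has DADS at -0.27 and garlic oil at 2.25. The genes were picked on the mean of these 2 changes, which share the alcohol arrays, so a shared side is not a result.

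Slc4a1, the anion exchanger of red blood cells, did not rise with both treatments. It read 4.96, 5.21, 4.78 and 5.06 with DADS, detected on none, and 7.51, 8.07, 7.29 and 7.24 with garlic oil, against 5.14, 5.18, 5.24 and 5.55 with alcohol. Pooled over both treatments, the change was 0.99 (limma adjusted p = 0.0209), with -0.27 for DADS and 2.25 for garlic oil, and the DADS minus garlic oil difference was -2.53 (adjusted p = 8.03e-06). All 5 measured red cell genes differed between DADS and garlic oil, where 0.655% of all genes did. Hba-a1 and Hbb-b2, of hemoglobin, were at -0.41 and -0.04 with DADS and at 1.17 and 1.81 with garlic oil, and neither passed the pooled test. Near-identical globin genes share sequence, so these probes are not independent. The summed level of 6 red cell markers was 13.89 to 14.41 with DADS and 15.67 to 15.88 with garlic oil, against 14.17 to 14.91 with alcohol. Whether the red cell content of the samples moved the Slc4a1 value was not tested.

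Slco1a4 read 8.18, 7.02, 7.49 and 7.54 with DADS and 8.69, 8.50, 9.30 and 9.12 with garlic oil, against 7.44, 6.92, 7.24 and 6.78 with alcohol. Only the garlic oil arrays lay above all alcohol arrays, and the DADS minus garlic oil difference was -1.34 (limma adjusted p = 0.0226). Apoa4, an apolipoprotein of lipid-rich particles, ran the other way. It read 14.30, 14.16, 14.80 and 14.01 with DADS and 13.09, 12.87, 13.44 and 12.19 with garlic oil, against 13.15, 12.13, 12.06 and 12.51 with alcohol, with a difference of 1.42 (adjusted p = 0.0366). Its DADS arrays were above all garlic oil and all alcohol arrays. Car3, carbonic anhydrase III of liver and fat, read 9.90, 9.83, 11.08 and 11.74 with DADS and 11.99, 12.17, 13.26 and 12.81 with garlic oil, against 13.12, 13.26, 13.46 and 13.38 with alcohol. The difference was -1.92 (adjusted p = 0.0349), and the garlic oil values overlapped the alcohol values. For Mup21 the difference was -1.81 (adjusted p = 0.0226).

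In the pooled test Slco1a4 had a change of 1.13 ± 0.21 (SE, limma adjusted p = 0.027), Apoa4 one of 1.15 ± 0.24 (SE, adjusted p = 0.0436), and Car3 one of -1.70 ± 0.32 (SE, adjusted p = 0.0315). Of these, Slco1a4 (1.25, adjusted p = 0.0438) and Apoa4 (1.37, adjusted p = 0.0388) passed without alcohol replicate 1 and Car3 (-1.77, adjusted p = 0.0625) did not. For the 63 other genes a difference between the treatments was not shown, which does not show that they acted alike. Among the genes whose changes were nearest each other were Oser1, with 0.73 for DADS and 0.71 for garlic oil, and Cenpa, with -0.84 and -0.90. The 95% interval of the DADS minus garlic oil difference ran between -0.37 and 0.40 for Oser1 and between -0.31 and 0.43 for Cenpa.

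Further rises past the test were those of Abhd2, a lipid hydrolase, at 0.57 (limma adjusted p = 0.0349), and Erap1, which trims peptides for MHC class I, at 0.57 (adjusted p = 0.036). Further falls were those of Cspg4, a proteoglycan of pericytes, at -0.64 (adjusted p = 0.0209), Plxna2, a semaphorin receptor, at -0.63 (adjusted p = 0.0228), Gnas, the stimulatory G protein subunit, at -0.67 (adjusted p = 0.0436), Wars, the tryptophanyl-tRNA synthetase, at -0.53 (adjusted p = 0.0381), and Ipo13, a nuclear import receptor, at -0.48 (adjusted p = 0.0349). Ipo13 had the narrowest interval of these, from -0.68 to -0.28. The Cspg4 probe was detected on 1 DADS array, no garlic oil array and all 4 alcohol arrays. Cspg4 therefore passed the filter only through its alcohol arrays, and its fitted change uses signals below detection. Without alcohol replicate 1, Abhd2, Plxna2 and Gnas stayed past the test, and Erap1, Cspg4, Wars and Ipo13 did not.

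**Figure D5:**
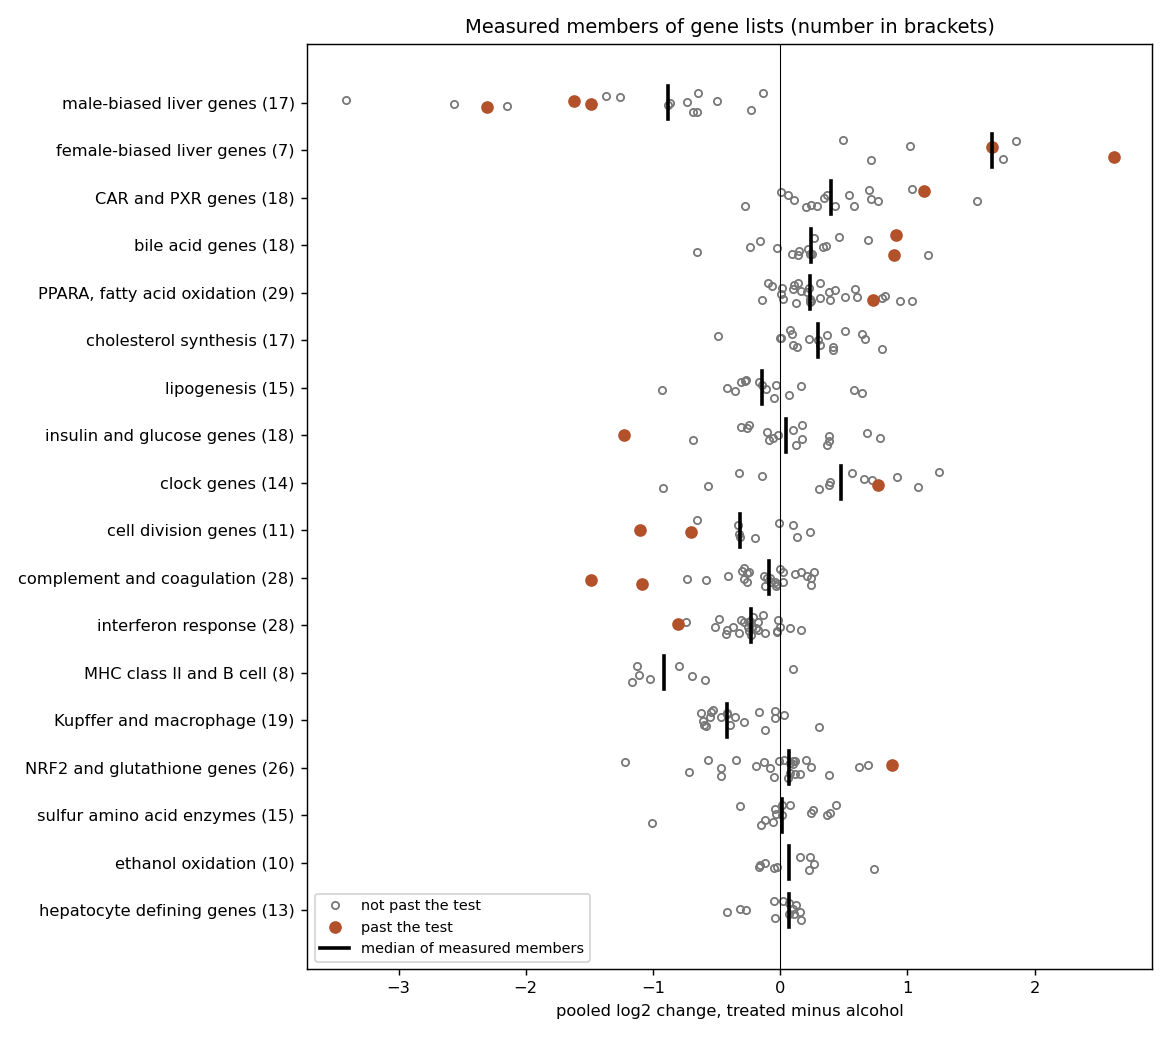
Pooled log2 change, treated minus alcohol (horizontal axis), of every measured member of 18 gene lists (rows, number of members in brackets); filled points passed the test, open points did not, and the black bar is the median of the list. All 17 measured genes of male liver lie below 0 and all 7 of female liver above it, while the defining hepatocyte genes centre on 0.07. Genes near background, as some of the female list were, can pass the filter through the group where they are higher.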

How the data were processed

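Liver RNA (500 ng per sample, labelled with biotin) was read on 16 Illumina arrays. Per the file headers, each deposited array file holds a signal intensity and a detection p-value for every probe, and its linear signal was not normalised by the authors as far as the values show. The deposited value table of the series holds normalised intensities made by the authors by a method not given in the sources used here. Per the submitters' processing notes, the tools were GenomeStudio, lumi and limma, for which no version is stated.

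Signals of all 16 arrays were background-corrected with normexp, quantile-normalised and put on the log2 scale with neqc (limma 3.58.1, R 4.3.3, offset 16), with negative controls inferred from the detection p-values. A probe was kept where 4 or more of the 12 arrays gave it a detection p below 0.05 (11715 probes), of which 11027 had a gene. GEO's platform annotation gave 1 symbol for 23978 probes and none for 1719. The brightest probe stood for each of 8243 genes, and none of the 68 called genes had another probe past the test in the opposite direction. Group means of DADS, garlic oil and alcohol were fitted with limma (9 residual degrees of freedom), with moderated tests, two-sided, and Benjamini-Hochberg adjustment over all genes. Array totals were compared by exact permutation over the 495 splits, which allow a smallest p of 0.00202. The code was tested on simulated data.

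The genes named were, among those past the test with the same sign for both treatments and detected on all arrays of the higher side, up to 12 rises and 12 falls with the largest value of the smaller of the 2 separate changes (clone names left out), up to 4 members of each list past the test, up to 6 genes that also differed between the treatments, and 20 fixed genes. Members and lists were chosen with earlier results of these data known. The number of arrays limits the precision, with a median SE of 0.146 for the pooled change. Alternatives covered normalisation, background, filter, probe choice, weights, arrays in the fit, each array left out, and replicate number as a block.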

Additional observations from a re-analysis of the deposited data

Results flagged for a closer look

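In groups of 4 arrays, 1 array lay far from the other 3 in 7 of 183 tests, where chance gives about 1 in 20. Cyp2b9 was 11.91 on DADS replicate 4, against 13.14 to 13.38 on the other DADS arrays. Alcohol replicate 1 was the distant array in 5 of the 7. There Slc51b was 5.89 against 5.24 to 5.33, Scd1 was 14.09 against 15.37 to 15.43, and Socs2 was 6.95 against 8.34 to 8.40. The summed level of T and NK cell markers was 10.30 on that array against 9.33 to 9.46, and that of acinar markers was 19.61 against 10.40 to 11.03. The summed level of acinar markers on DADS replicate 1 was 10.36, against 10.65 to 10.70 on the other DADS arrays.

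For 5 genes past the pooled test the limma test of the difference between DADS and garlic oil also passed. The DADS minus garlic oil difference on the log2 scale was -1.92 for Car3, -1.81 for Mup21, -1.34 for Slco1a4, 1.42 for Apoa4 and -2.53 for Slc4a1.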

How the results depend on the processing

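All 68 genes kept their direction in every alternative that measured them. Passing the test depended on the alcohol arrays and on the setting. With arrays scaled to their median, 140 genes passed (116 higher, 24 lower, 45 of the 68), and 120 differed between DADS and garlic oil. Without background correction 55 passed, 15 of them higher. With all 16 arrays in the fit, 247 passed (95 higher, 152 lower) and 155 differed between the treatments. That fit adds the control arrays, whose median SD was 0.164, and has 12 residual degrees of freedom in place of 9. With no filter, over 16593 genes, 29 passed (10 higher, 19 lower, 25 of the 68) and 18 differed. With probes detected on all 12 arrays, 43 passed, 13 of them higher. With array weights 115 passed (43 higher, 72 lower). The authors' deposited table gave 53, 48 of them among the 68. Leaving out each array in turn gave 0 to 76 genes (0 to 26 higher, 0 to 58 lower), 19 to 64 that differed between DADS and garlic oil, and 223 to 386 whose arrays did not overlap. The causes of these shifts were not tested.

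With replicate number as a block, 10 genes passed (6 higher, 4 lower, 9 of the 68), and with the block and all 16 arrays, an alternative chosen after seeing the data, 212 passed (76 higher, 136 lower) and 160 differed between the treatments. The numbers were not found to pair the samples: over 12 pairs of same-numbered arrays the correlation of deviations from the group means ran from -0.371 to 0.407, and 4 exceeded 0.1.

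Of the named genes, those whose sign changed were near 0 and passed in no setting. With arrays scaled to their median Cyp2e1 was at 0.14, Aldh2 at 0.13 and Cbs at 0.15. With each array left out in turn, Aldh2 ran from -0.097 to 0.0018 (without alcohol replicate 3), Fasn from -0.27 to 0.083 (without alcohol replicate 3), Gclc from -0.35 to 0.094 (without alcohol replicate 4), Plin2 from -0.46 to 0.0042 (without alcohol replicate 4) and Cyp2b10 from -0.14 (without DADS replicate 2) to 0.30. Cyp2b10 was also at -0.058 without alcohol replicate 1 and at -0.047 without alcohol replicate 4.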

Other observations

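Lists outside the comparisons above gave small shifts and no gene past the pooled limma test. Of 28 measured proteasome subunits 25 lay above 0 with a median of 0.17. Of 28 subunits of oxidative phosphorylation 19 did, with a median of 0.12, and of 0.05 without alcohol replicate 2. The oxidative phosphorylation median was -0.02 for DADS and 0.24 for garlic oil. Cytosolic ribosomal proteins (19 measured) had a median of 0.07. Scaling to the array median moved the median of all genes by 0.13, a shift of similar size. In that setting the median was 0.374 for proteasome subunits, 0.345 for oxidative phosphorylation and 0.282 for ribosomal proteins. Acute phase proteins (23 measured) had a median of 0.05, metallothioneins and zinc genes (7 measured) one of 0.26, pericentral genes (16 measured) one of -0.06 and periportal genes (12 measured) one of 0.14. The periportal median was -0.02 for DADS and 0.30 for garlic oil, and that of metallothioneins and zinc genes was 0.41 and 0.11. The 19 measured chaperones had a median of 0.04. 2 of them, the mitochondrial chaperonin pair Hspe1 and Hspd1, had all treated arrays above all alcohol arrays, where 0.776% of all genes did. They were at 0.67 (adjusted p = 0.0685) and 0.34 (adjusted p = 0.157).

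Among 19 markers of stellate cells and extracellular matrix 12 lay below 0. Col3a1, a fibrillar collagen, was at -0.91 (adjusted p = 0.0866), with arrays that overlapped. Mmp2, a matrix metalloproteinase, was at -0.57 (adjusted p = 0.0745), with all treated arrays below all alcohol arrays. Vldlr, a lipoprotein receptor, was at 1.24 (adjusted p = 0.0673). None of these passed the test, and they were chosen after their values were seen.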
